A study of Sus scrofa with 27 samples.

Results

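The genes described here are 10 ligands through which the granulosa cells (GCs) of an ovarian follicle can signal to blood vessels: ANGPT1, ANGPT2, VEGFA, VEGFB, VEGFC, PGF, PDGFA, PDGFB, FGF2 and THBS1. They were found by gene symbol among 35670 pig Ensembl identifiers, and each symbol matched 1 identifier. Of the 10 ligands, 9 were among the 11384 named genes tested, and PGF fell below the minimum mean count of 5. The study asked how feed restriction of lactating sows changes the GCs of the follicle that develops after weaning. Mural GCs, which line the inner wall of the follicle, were cut out by laser capture microdissection from 1 follicle per sow, the largest one in the right ovary that was healthy, and each sow gave 1 sequencing library. Daily feed was 6.5 kg for the 13 full-fed (FF) sows and 3.25 kg for the 14 restricted (RES) sows through the final 2 weeks of lactation. All sows were of the strain Large White times Norwegian Landrace with the genotype wild type, received one common ration after weaning, which the labels call full feeding and the study's methods put below the restricted amount, and gave tissue on day 2 post-weaning. Both groups were chosen by the study from larger ones, FF for low and RES for high body-weight loss, and 1 FF sow was left out for its RNA quality. A difference between the groups thus includes this choice of sows. The study also reports that the largest healthy follicle was smaller in RES sows, so diet and follicle size cannot be told apart here.

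The granulosa layer of a healthy follicle holds no blood vessels of its own. Its vessels lie in the theca, the layer just outside, and GCs secrete factors that act on the endothelial cells there. VEGFA drives the growth and leakiness of vessels through the receptor KDR. ANGPT1 activates the receptor TEK (TIE2) and stabilizes vessels, and ANGPT2 competes for the same receptor and loosens them. The balance of the angiopoietins therefore belongs to the usual description of a growing or regressing follicle. THBS1 is a matrix protein that restrains vessel growth.

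Total counts were 12299220 to 16021200 in FF and 12942198 to 18120922 in RES libraries. Counts are given below as normalized counts, the deposited count divided by the size factor of the library. Differences between diets are log2 fold changes of RES against FF from edgeR's quasi-likelihood test, with the standard error (SE) and the p adjusted by Benjamini-Hochberg over all genes tested. The threshold for a call was an adjusted p of 0.05. The most abundant of the GC markers tested was VCAN, with mean levels (± SD) of 50758 ± 15720 normalized counts in FF and 56380 ± 10348 in RES. AMH of the same list was low, at 5.68 ± 3.03 in FF and 7.32 ± 5.25 in RES. FOXL2 and CYP19A1 had no identifier matched by symbol. RNA of the vessel wall was also present in these bulk libraries, in which fewer cells of a type and less RNA per cell cannot be told apart. The libraries were further split by the base quality the study lists, into an upper group of 7 FF and 7 RES libraries and a lower group of 6 FF and 7 RES libraries. The study's text names no sequencing batch, and it is uncertain whether the quality listed for FF10 belongs to the library used. The labels leave out FF sow 9 for low RNA integrity, but the study lists the lowest integrity for FF sow 10, so the retained FF10 may be the sow meant to be left out.

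ANGPT1 and ANGPT2 act through the same receptor, and the results turn on this pair, so the 250 bases upstream of the annotated start of each are shown from the RefSeq annotation of Sscrofa11.1, which is also the build of the deposited counts. ANGPT1 spans chr4:29925203-30233434 on the plus strand with 11 exon blocks, and ANGPT2 spans chr15:37544177-37600925 on the minus strand with 9. The windows are chr4:29924953-29925202 and chr15:37600926-37601175, written 5′ to 3′ on the strand of the gene. Capitals mark the only match to 5 motifs searched on both strands of these windows.
ANGPT1: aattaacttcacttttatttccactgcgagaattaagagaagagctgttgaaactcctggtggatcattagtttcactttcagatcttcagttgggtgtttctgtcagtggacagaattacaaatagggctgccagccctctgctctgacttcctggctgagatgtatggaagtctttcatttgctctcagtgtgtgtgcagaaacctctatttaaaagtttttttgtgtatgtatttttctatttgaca
ANGPT2: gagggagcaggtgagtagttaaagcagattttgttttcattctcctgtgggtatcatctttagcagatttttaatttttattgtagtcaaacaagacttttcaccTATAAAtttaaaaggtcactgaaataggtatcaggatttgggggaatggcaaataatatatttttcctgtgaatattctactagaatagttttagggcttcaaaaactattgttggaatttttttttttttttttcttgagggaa

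The motifs were the hypoxia core ACGTG, the AP-1 site TGANTCA, the FOXO site GTAAACA, the SF-1 site CAAGGTCA and the TATA element TATAAA. The ANGPT1 window held none of these letters. The ANGPT2 window held TATAAA at 145 to 140 bases before the annotated start. Among 10352 windows of the same length upstream of tested genes, 21.0% held the hypoxia core, 3.96% the AP-1 site, 2.07% the FOXO site, 0.879% the SF-1 site and 6.90% TATAAA. G and C made up 38.8% of the ANGPT1 and 30.8% of the ANGPT2 window.

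The other ligands lie apart from this pair in the same annotation. VEGFA is at chr7:38746393-38762282 on the plus strand, VEGFB at chr2:7872873-7876149, VEGFC at chr15:39037764-39136234 and PGF at chr7:98149510-98162784, all 3 on the minus strand. PDGFA is at chr3:296399-322967, FGF2 at chr8:101278877-101344084 and THBS1 at chr1:131728781-131746098, also on the minus strand. Their counts cover all annotated exons of a gene, so no isoform was separated.

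Per kilobase of RefSeq exon, ANGPT1 had the highest mean level of the 9 ligands with a RefSeq record, at 354 ± 178 normalized counts per kb in the 13 FF libraries and 195 ± 84.1 in the 14 RES libraries (mean ± SD, as for the levels that follow). THBS1 at 109 ± 80.6 in FF and 92.6 ± 47.7 in RES and VEGFB at 95.4 ± 25.1 and 119 ± 36.7 came next, THBS1 first in FF and VEGFB first in RES. The SD ranges of these neighbours overlapped in both diets. VEGFA at 38.0 ± 17.4 and 40.0 ± 16.5, ANGPT2 at 36.5 ± 20.1 and 36.4 ± 18.4 and VEGFC at 28.4 ± 4.05 and 29.7 ± 6.52 also overlapped with each other. FGF2, at 20.3 ± 3.16 and 20.2 ± 4.25, lay below the SD range of VEGFC in FF and overlapped with it in RES, and PDGFA and PGF were below 3 normalized counts per kb in both diets. PDGFB had no RefSeq record by symbol and so no length. The RefSeq model of VEGFA is partial, and exon lengths of RefSeq may differ from the Ensembl models used for counting.

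Of the 9 ligands tested, ANGPT1 was the one called, lower in RES. Of all genes tested, 14.1% were called in either direction, 8.29% as higher and 5.85% as lower in RES. The median log2 fold change over the ligands was −0.03, against −0.02 over all genes tested. A count of 1 in 9 ligands was thus near the share among all genes.

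**Figure D1:**
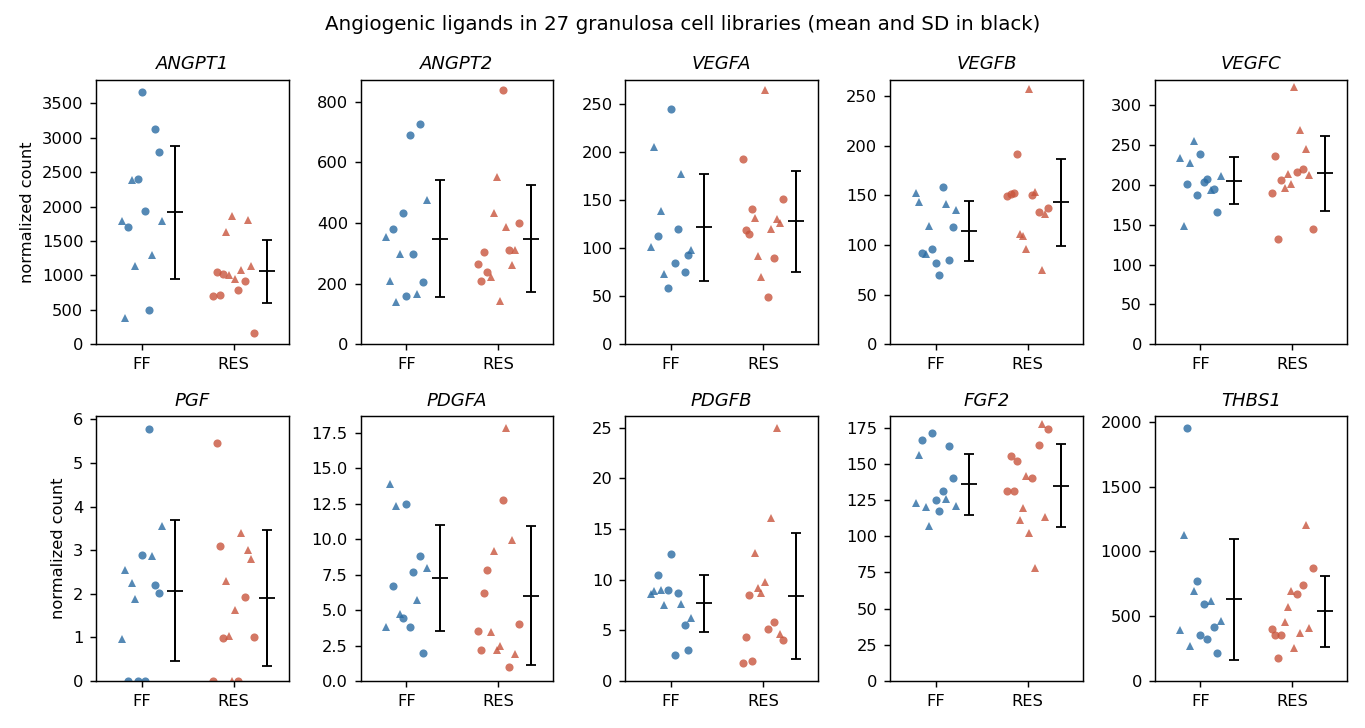
Normalized counts (vertical axis, from 0) of the 10 ligands in each FF (blue) and RES (red) library, with circles for the upper and triangles for the lower base-quality group, and the mean and SD of each diet in black. ANGPT1 averaged 1915 in FF and 1057 in RES with overlapping libraries, and the libraries of the diets overlapped for each of the other ligands.

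ANGPT1, the vessel-stabilizing angiopoietin, ranged from 380 normalized counts in FF10 to 3667 in FF2 among FF libraries, with a median of 1793. In RES it ranged from 163 in RES9 to 1857 in RES2, with a median of 1013. The diets overlapped, but 12 of 14 RES libraries lay below the FF median and 11 of 13 FF libraries above the RES median.

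The mean ± SD was 1915 ± 966 over the 13 FF libraries and 1057 ± 455 over the 14 RES libraries. This is a log2 fold change of −0.89 (95% interval −1.48 to −0.31, SE 0.29, edgeR quasi-likelihood test with an adjusted p of 0.0346). The call depended on single libraries. It was lost without any 1 of FF2, FF6, FF7, FF12, FF14, RES1, RES3, RES6, RES11 or RES12, with a log2 fold change of −0.89 to −0.78 and an adjusted p of 0.0512 to 0.0700 in those fits. Over all 27 fits without 1 library the log2 fold change was −0.98 to −0.78, and ANGPT1 was called in 17 of them.

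The difference in ANGPT1 was unequal in the base-quality groups. In the upper group the 7 FF libraries had a median of 2395 normalized counts and the 7 RES libraries one of 790, and 6 of the 7 FF libraries lay above the highest RES library. RES minus FF was −1.63 there on the log2 scale (edgeR SE 0.39 and adjusted p = 0.0133). In the lower group the medians were 1541 and 1133 normalized counts, and RES minus FF was −0.15 (edgeR SE 0.30 and adjusted p = 0.895).

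The term for this inequality, the lower minus the upper difference, was 1.48 with an SE of 0.52 (edgeR p = 0.00816 before adjustment over all genes and 0.293 after it). With FF10 placed in the upper group, the differences were −1.47 (adjusted p = 0.0445) in the upper and −0.35 (adjusted p = 0.595) in the lower group, and the term was 1.13 with an adjusted p of 0.993 (edgeR). The part of base quality in the result was not tested further.

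**Figure D2:**
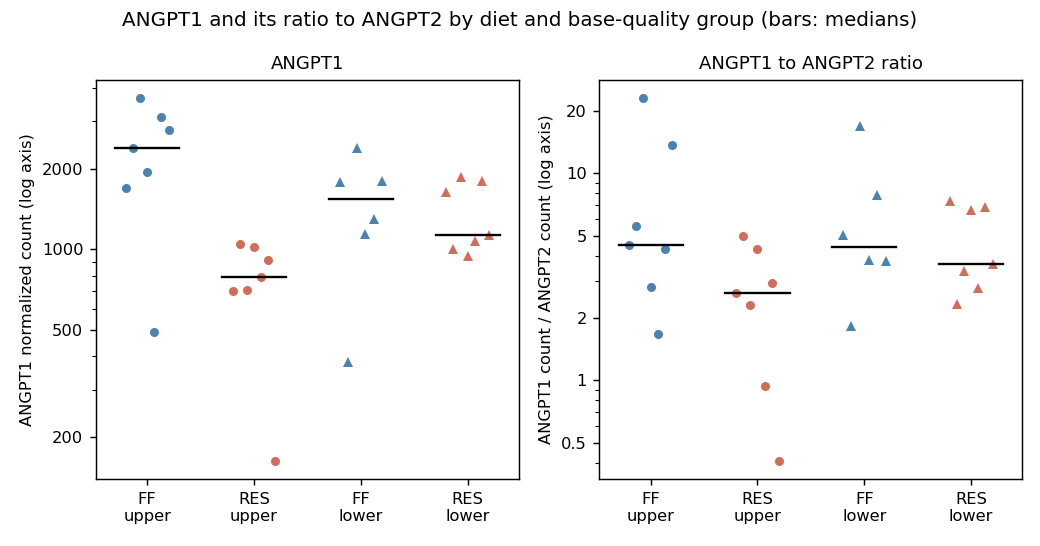
ANGPT1 normalized count (left, log axis) and the ratio of ANGPT1 to ANGPT2 counts (right, log axis) per library by diet and base-quality group, with the median of each set as a bar. In the upper group the ANGPT1 medians were 2395 in FF and 790 in RES, and in the lower group 1541 and 1133.

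ANGPT2, the destabilizing angiopoietin, showed no such difference. It ranged from 140 in FF12 to 726 in FF6 with a median of 299 normalized counts in FF, and from 141 in RES3 to 837 in RES4 with a median of 308 in RES. The libraries of either diet thus covered nearly the same span. The mean ± SD was 348 ± 192 over the 13 FF and 348 ± 176 over the 14 RES libraries, a log2 fold change of −0.03 (95% interval −0.57 to 0.51, SE 0.26, edgeR adjusted p = 0.953).

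The balance of the angiopoietins was read as the ratio of their counts inside each library, which does not depend on library size. In FF the ratio of ANGPT1 to ANGPT2 ranged from 1.67 in FF4 to 23.1 in FF2, with a median of 4.48. In RES it ranged from 0.407 in RES9 to 7.37 in RES13, with a median of 3.16. The ratio was below 1 in 2 RES libraries and in 0 FF libraries. It compares counts and not levels per length, and the exons of ANGPT2 (9540 bases in RefSeq) are longer than those of ANGPT1 (5416 bases). The diets overlapped, with 10 of 14 RES libraries below the FF median.

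On the log2 scale the ratio had a mean ± SD of 2.41 ± 1.16 over FF and 1.57 ± 1.14 over RES libraries. The difference of −0.85 did not pass the two-sided permutation test (p = 0.0671, 0.134 after adjustment over the 2 ratios compared). It was −1.44 within the upper quality group (p = 0.0612, exact permutation test) and −0.25 within the lower one (p = 0.635, exact permutation test). The unadjusted p fell below 0.05 in 5 of the 27 comparisons that left out 1 library: without FF4 (p = 0.0323), FF10 (p = 0.0361), RES3 (p = 0.0462), RES7 (p = 0.0455) or RES13 (p = 0.0436), all by permutation.

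Among the VEGF family, VEGFA ranged from 58.1 in FF14 to 245 in FF2 in FF (median 101) and from 49.4 in RES4 to 264 in RES3 in RES (median 123 normalized counts). The diets covered the same range. The log2 fold change was 0.02 (SE 0.21, 95% interval −0.41 to 0.45, adjusted p = 0.965, edgeR).

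VEGFB, a relative of VEGFA that binds FLT1, ranged from 69.4 in FF3 to 159 in FF4 (median 118) in FF and from 74.9 in RES7 to 257 in RES3 (median 143) in RES. Of the 14 RES libraries, 10 lay above the FF median, and 11 of 13 FF libraries lay below the RES median. The log2 fold change of 0.27 (SE 0.15, 95% interval −0.03 to 0.57) did not pass the test (edgeR p = 0.0739 before and 0.212 after adjustment).

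In the upper quality group VEGFB was called, at a mean ± SD of 100.1 ± 30.0 normalized counts over 7 FF libraries and 152 ± 19.1 over 7 RES libraries (log2 fold change 0.57, edgeR adjusted p = 0.0265). In the lower group it was −0.03 (adjusted p = 0.976, edgeR). The term for the inequality had an adjusted p of 0.401, and with FF10 placed in the upper group VEGFB was not called there (adjusted p = 0.0814, edgeR). VEGFB shares 122 exon bases with TRPT1 on the opposite strand, and the counting set no strand option, so reads of the shared bases cannot be told apart.

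VEGFC, which acts mainly on lymphatic endothelium through FLT4, was among the steadiest of the ligands. It ranged from 148 in FF10 to 255 in FF13 (median 203) in FF and from 132 in RES11 to 322 in RES3 (median 213) in RES. Its log2 fold change was 0.02 (95% interval −0.18 to 0.23, adjusted p = 0.912, edgeR). The coefficient of variation was 14.3% in FF and 21.9% in RES, against 50.4% and 43.1% for ANGPT1.

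PGF, the placenta growth factor, was near the limit of detection. It had 0 to 6 counts per library, with 0 counts in 3 FF and 3 RES libraries, and a count of 0 allows up to 3 counts, or 0.176 to 0.239 CPM in those 6 libraries (counting error only). In the alternative fit with no count minimum, the log2 fold change of PGF was −0.17 (95% interval −1.15 to 0.81, edgeR adjusted p = 0.864).

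The PDGF ligands, which recruit the mural cells of vessels, were also low. PDGFA had 2 to 13 counts in FF and 1 to 21 in RES, and PDGFB 2 to 13 in FF and 2 to 25 in RES. The log2 fold change was −0.27 for PDGFA (95% interval −1.01 to 0.46, adjusted p = 0.652, edgeR) and 0.09 for PDGFB (95% interval −0.56 to 0.73, adjusted p = 0.887, edgeR). Neither passed the test, and the intervals are wide. PDGFB was −0.73 within the upper quality group (adjusted p = 0.219, edgeR), so that its direction depended on the libraries used.

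FGF2, a growth factor for both endothelial cells and GCs, ranged from 107 in FF13 to 171 in FF14 (median 126) in FF and from 78.1 in RES5 to 178 in RES7 (median 136) in RES. The diets overlapped over most of this range, and FGF2 did not pass the test (log2 fold change −0.05, 95% interval −0.28 to 0.18, edgeR adjusted p = 0.804). FGF2 shares 1014 exon bases with NUDT6 on the opposite strand, so its counts carry the same uncertainty as those of VEGFB.

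THBS1, the inhibitor among the members, ranged from 216 in FF7 to 1952 in FF11 (median 460 normalized counts) in FF and from 174 in RES11 to 1207 in RES7 (median 431) in RES. The log2 fold change was −0.27 (95% interval −0.88 to 0.34, adjusted p = 0.582, edgeR). The ratio of VEGFA to THBS1 counts had a median of 0.215 in FF and 0.300 in RES. The difference on the log2 scale was 0.22 (permutation p = 0.608, also 0.608 after adjustment over the 2 ratios).

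**Figure D3:**
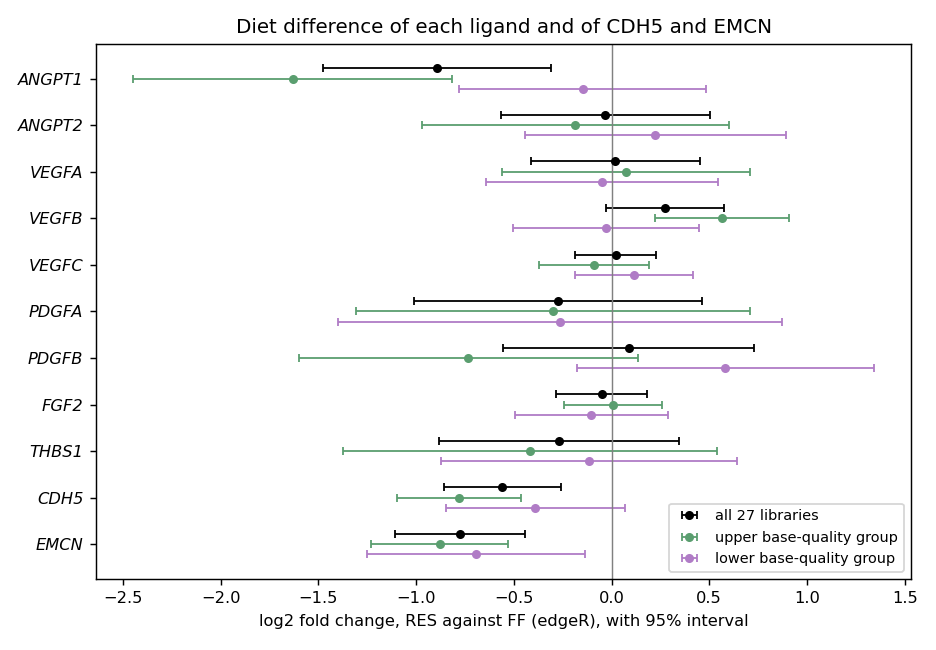
Log2 fold change of RES against FF (horizontal axis, edgeR) with its 95% interval for the 9 tested ligands, CDH5 and EMCN, over all libraries (black), within the upper (green) and within the lower (purple) base-quality group. ANGPT1 stood at −0.89 over all libraries, −1.63 in the upper and −0.15 in the lower group, and most other ligands at values whose intervals include 0.

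CDH5 (VE-cadherin) and EMCN (endomucin) are membrane proteins of vascular endothelium, and both were lower in RES. CDH5 ranged from 101 to 195 normalized counts in FF and from 51.6 to 196 in RES, and changed by −0.56 on the log2 scale (edgeR SE 0.15 and adjusted p = 0.0113). EMCN ranged from 284 to 873 in FF and from 215 to 567 in RES, and changed by −0.78 (edgeR SE 0.16 and adjusted p = 0.00283). For each, 13 of 13 FF libraries lay above the RES median and 13 of 14 RES libraries below the FF median, the exception being RES7.

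Both markers were called in every fit that left out 1 library and within the upper quality group (CDH5 −0.78 and EMCN −0.88, edgeR adjusted p = 0.00793 for each). Within the lower group neither was called (CDH5 −0.39, adjusted p = 0.486, and EMCN −0.69, adjusted p = 0.295, edgeR), but that fit called only 1 of the 11384 genes, against 2023 in the upper group.

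Of the endothelial marker list, 5 of 13 tested members were lower in RES and 0 higher, where 5.85% of all genes were called lower and 8.29% higher: CDH5, EMCN, the junction proteins CLDN5 (log2 fold change −0.80) and ESAM (−0.62), and the guidance receptor ROBO4 (−0.61). The median over the list was −0.46. PECAM1 was −0.12 and MMRN2 −0.44 without passing the test. Of the 13 tested members, 11 were below 0, and the others were LYL1 at 0.54 (adjusted p = 0.358, edgeR) and ECSCR at 0.0044 (adjusted p = 0.993, edgeR). PLVAP, EGFL7 and TAL1 had a mean below 5 counts. The summed level of the list was 1108 to 2034 normalized counts in FF and 788 to 2200 in RES. When the CDH5 level was added to the fit as a covariate, ANGPT1 stood at −0.56 on the log2 scale (edgeR SE 0.37 and adjusted p = 0.696), and none of the 11384 genes were called, with 942 at an unadjusted p under 0.05. CDH5 itself differed between the diets, so this fit cannot separate its level from the diet. The 5 called endothelial markers were lower in RES as ANGPT1 was, and their part in its difference was not tested.

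The relation of the ligands to the endothelial markers was then read within each diet, over 9 ligands, 2 markers and 2 diets, 36 correlations in all. None had an adjusted p under 0.05 by Pearson's r (lowest adjusted p = 0.0882), and 6 had an unadjusted p under 0.05, all from permutation tests. By Spearman's rho, 3 had an adjusted p under 0.05. CDH5 and EMCN themselves correlated at r = 0.35 in FF (permutation p = 0.240, rho = 0.38 with p = 0.195) and at r = 0.62 in RES (permutation p = 0.0402, rho = 0.18 with p = 0.542).

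ANGPT1 went with EMCN at r = 0.59 in FF (permutation p = 0.0319, adjusted p = 0.191, rho = 0.62 with p = 0.0266). The value was 0.61 without the 2 FF libraries farthest from the EMCN median and 0.74 within the quality groups (permutation p = 0.00263, adjusted p = 0.0947), but 0.49 without FF10 (permutation p = 0.104). In RES it was r = 0.60 (permutation p = 0.0276, adjusted p = 0.191), but rho was 0.31 (p = 0.286), and r was 0.09 without the 2 farthest libraries. The RES value thus rested on those libraries, RES7 among them. With CDH5, ANGPT1 had an r of 0.08 in FF and 0.49 in RES, neither past the test, and the RES value was 0.20 without RES7 and 0.09 without the 2 farthest libraries.

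VEGFB was low where EMCN was high among RES libraries, with r = −0.70 (adjusted p = 0.129, from a permutation p of 0.0114) and rho = −0.84 (adjusted p = 0.0144, from a permutation p of 0.000400). It was −0.71 without the 2 farthest libraries, and −0.68 within the quality groups (adjusted p = 0.307, permutation). In FF the correlation was −0.37 (permutation p = 0.210, rho = −0.36).

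THBS1 went with EMCN in RES at r = 0.70 (permutation p = 0.00987, adjusted p = 0.129) and rho = 0.73 (adjusted p = 0.0493). It was 0.70 without the 2 farthest libraries, but 0.37 without RES7 alone. In FF it was −0.36 (permutation p = 0.222, rho = −0.27).

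PDGFB had the highest r with CDH5, 0.82 in RES (permutation p = 0.00245, adjusted p = 0.0882, rho = 0.61 with adjusted p = 0.191). It fell to 0.39 without the 2 libraries farthest from the CDH5 median and to 0.52 without RES7, which held 25 PDGFB counts and the highest CDH5. With EMCN, PDGFB had r = 0.70 in RES (permutation p = 0.0143, rho = 0.35) and −0.03 without the 2 farthest libraries. Both relations rested on those libraries.

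VEGFC and CDH5 had rho = 0.76 in RES (permutation p = 0.00239, adjusted p = 0.0430) at an r of 0.48 (permutation p = 0.0971, adjusted p = 0.388, 0.65 without the 2 farthest libraries, and 0.30 within the quality groups with an adjusted p of 0.688), and r = −0.37 in FF (permutation p = 0.221). The difference between the diets in this r, 0.85, had the lowest p of the 18 differences tested (permutation p = 0.0101, adjusted p = 0.181). For the other ligands, ANGPT2, VEGFA, PDGFA and FGF2, no r with either marker had a permutation p under 0.05 in either diet over all libraries, and r lay between −0.25 and 0.40. Single alternatives gave other values for EMCN, none with an adjusted p under 0.05. FGF2 in RES had 0.72 within the quality groups (permutation p = 0.0190, adjusted p = 0.228), PDGFA in FF 0.62 without FF10 (permutation p = 0.0290, adjusted p = 0.174) and VEGFA in RES −0.61 without the 2 farthest libraries (permutation p = 0.0267, adjusted p = 0.240).

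**Figure D4:**
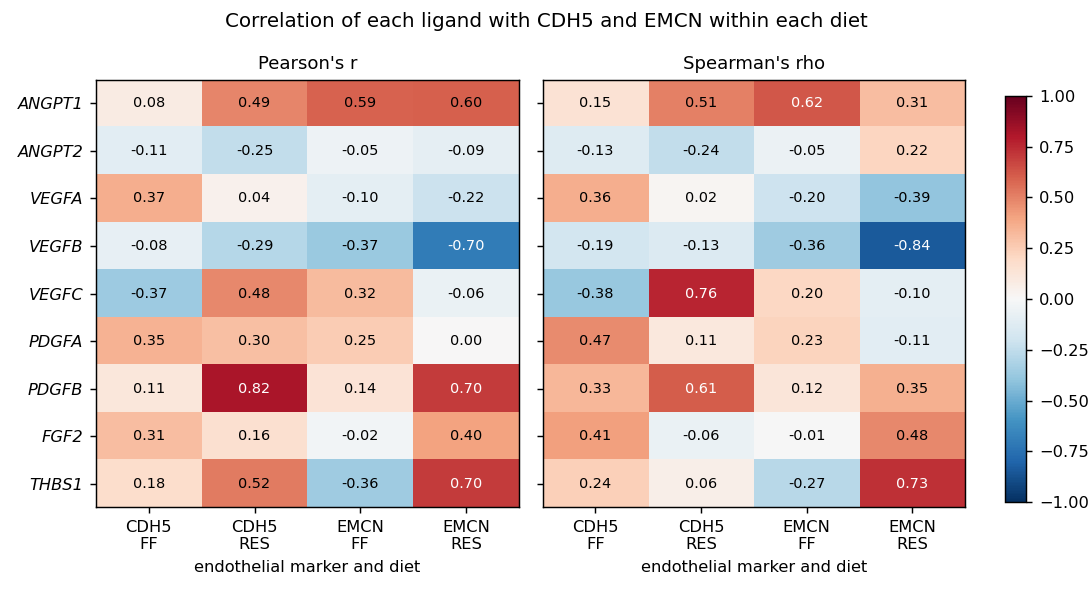
Pearson's r (left) and Spearman's rho (right) of each tested ligand with CDH5 and EMCN over the 13 FF or 14 RES libraries, on a colour scale from −1 to 1. ANGPT1 was positive with EMCN in both diets (r = 0.59 and 0.60), VEGFB was negative in RES (r = −0.70), and PDGFB reached 0.82 with CDH5 in RES.

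Among the ligands themselves, 36 pairs in 2 diets gave 72 correlations, of which 12 had an unadjusted permutation p under 0.05 and none an adjusted p under 0.05 by r (lowest 0.189). ANGPT2 and VEGFA were opposed in both diets. Their r was −0.63 in FF (permutation p = 0.0210, adjusted p = 0.189, rho = −0.71 with adjusted p = 0.156) and −0.70 in RES (permutation p = 0.0147, adjusted p = 0.189, rho = −0.65 with adjusted p = 0.198). Without the 2 farthest libraries it was −0.61 and −0.55, and within the quality groups −0.62 and −0.70. On log2 values it was −0.72 in FF (adjusted p = 0.157, permutation) and −0.85 in RES (adjusted p = 0.0187, permutation). RES4, with the highest ANGPT2 at 837 normalized counts, had the lowest VEGFA at 49.4, and RES3, with the lowest ANGPT2 among RES libraries at 141, had the highest VEGFA at 264.

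ANGPT1 and VEGFB were opposed in FF (r = −0.69, permutation p = 0.00921, adjusted p = 0.189, rho = −0.73, −0.71 without the 2 farthest libraries, −0.60 within the quality groups). FGF2 and THBS1 went together in RES (r = 0.66, permutation p = 0.00993, adjusted p = 0.189, rho = 0.54), where r was 0.85 within the quality groups (adjusted p = 0.0389, permutation) and 0.39 without the 2 farthest libraries. In FF their r was 0.53 (permutation p = 0.0482, rho = 0.29) and 0.11 without the 2 farthest. VEGFA and PDGFA in FF had r = 0.70 (permutation p = 0.00689, adjusted p = 0.189, rho = 0.61) and 0.35 without the 2 farthest, and in RES r = −0.28 (permutation p = 0.319, rho = −0.02). None of the 36 differences in r between diets passed adjustment (lowest for VEGFA with PDGFA, −0.99, permutation p = 0.0214, adjusted p = 0.771).

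**Figure D5:**
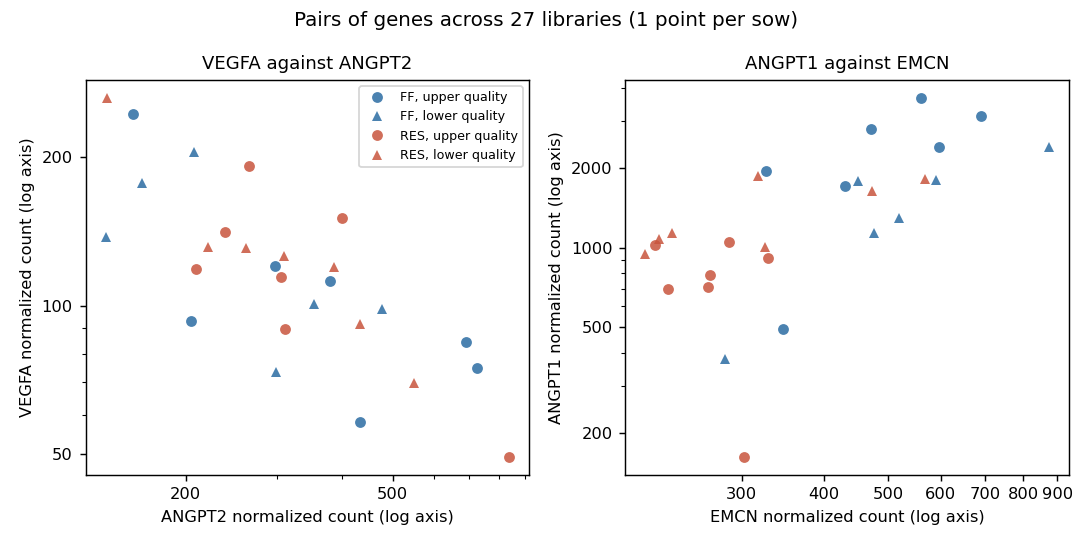
VEGFA against ANGPT2 (left) and ANGPT1 against EMCN (right) as normalized counts on log axes, with 1 point per library, FF in blue, RES in red, circles for the upper and triangles for the lower base-quality group. VEGFA was low where ANGPT2 was high in both diets (r = −0.63 in FF and −0.70 in RES), and ANGPT1 was high where EMCN was high in FF (r = 0.59).

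The genes most like each angiopoietin and VEGFA were sought among 9513 genes whose mean reached 20 normalized counts, by Pearson's r of log2 values over the 27 libraries after removing each diet's mean, as a description. The 5 most like ANGPT1 were LMBRD1 (r = 0.85), AHR (0.85), SAT1 (0.84), DENND4A (0.83) and BMPR1B (0.83). AHR is the aryl hydrocarbon receptor, SAT1 degrades polyamines and BMPR1B is a receptor for bone morphogenetic proteins. All but LMBRD1 were also called lower in RES, with log2 fold changes of −1.06 for AHR, −1.41 for SAT1, −0.60 for DENND4A and −0.49 for BMPR1B. Of all genes tested, 5.85% were called lower.

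Most like ANGPT2 was MCPH1 (r = 0.85), followed by CDKL4 (0.82), MYZAP (0.81), FBXO32 (0.80) and ADAMTS5 (0.79). Of these, CDKL4 (log2 fold change −1.78, adjusted p = 0.0447, edgeR) and FBXO32 (−1.17, adjusted p = 0.0437, edgeR) were called lower in RES, against 5.85% of all genes. ANGPT2 lies inside the span of MCPH1 (chr15:37455186-37674971, plus strand), on the opposite strand, with 0 shared exon bases in RefSeq. As the counting set no strand option, reads of the pair cannot be fully told apart, and the part of this overlap in the likeness was not tested. Most like VEGFA were GDPD5 (0.82), ABCF2 (0.80), MYO7A (0.80), FDX1 (0.79), a mitochondrial electron donor of steroid synthesis, and FARSA (0.79).

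The receptors of these ligands are carried mainly by vascular and stromal cells. Of 12 receptors tested, 1 was called, PDGFRB, the receptor of PDGFB on vessel mural cells, at a mean ± SD of 42.5 ± 19.0 normalized counts over FF and 28.5 ± 8.89 over RES libraries (log2 fold change −0.62, adjusted p = 0.0402, edgeR). A count of 1 in 12 was near the share of all genes, 14.1% in either direction. It became 2 with DESeq2, 3 with base quality as a covariate and 0 without RES3 and RES5, the libraries of lowest base quality. TEK, the receptor of both angiopoietins, was −0.54 (adjusted p = 0.0563, edgeR) and KDR −0.43 (adjusted p = 0.0774, edgeR). TIE1 of the same list went the other way at 0.40 (adjusted p = 0.227, edgeR), and FLT1 was −0.19 (adjusted p = 0.401, edgeR). Of the 12 receptors tested, 9 were below 0. CD47, NRP1 and PDGFRA, the most abundant of the list, were 0.04, −0.39 and −0.44 without passing the test. The median log2 fold change of the receptors was −0.38.

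Of 21 other vessel-active ligands, 4 were lower in RES and 0 higher: VEGFD (log2 fold change −1.67), a lymphatic growth factor, the chemokine CXCL12 (−1.16), ANGPTL4 (−0.80) and ANGPTL1 (−0.44). Of all genes 5.85% were called lower, which is the background for this count and for the inhibitors that follow. The list median was −0.36, and 7 members were called without FF10. PDGFD (−0.14) and CCN2 (−0.08), also abundant, did not pass the test. Of 12 further inhibitors of vessel growth, TIMP3 (−0.71) and SEMA3C (−0.98) were lower, 0 were higher, and the median was −0.37. SEMA3A, an abundant guidance factor at a mean ± SD of 3265 ± 998 normalized counts over FF and 3012 ± 689 over RES libraries, was −0.16 without passing the test, and SPARC was −0.40 (adjusted p = 0.0908, edgeR).

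Of 13 genes of the hypoxia response, which controls VEGFA in many tissues, 1 was higher in RES, the glycolytic enzyme PGK1 (log2 fold change 0.48, adjusted p = 0.0384, edgeR), and 0 were lower. HIF1A, the oxygen-regulated factor itself, had a mean ± SD of 18891 ± 2323 normalized counts in FF and 20453 ± 2296 in RES and did not pass (0.07, adjusted p = 0.528, edgeR). LDHA, which makes lactate, was 0.87 with an adjusted p of 0.0509 (edgeR). The list median was 0.07. A count of 1 in 13 was near the 8.29% of all genes called higher, and it became 3 with DESeq2 and 2 with base quality as a covariate.

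Markers of other cells in and around the follicle were read in the same fit. Of 11 markers of vessel mural cells, RGS5 was lower in RES (log2 fold change −0.77, adjusted p = 0.0131, edgeR), while ACTA2 was −0.01 and MYH11 −0.82 without passing. A count of 1 in 11 was near the share of all genes, 5.85% lower and 14.1% in either direction. Of 6 theca markers 0 were called by edgeR, with 2 at an unadjusted p under 0.05, and 1 was called by DESeq2 or with base quality as a covariate. CYP17A1 stood at −1.11 (adjusted p = 0.0523, edgeR), INSL3 at −0.56 and COL14A1 at −0.24. Of 6 stroma markers 0 were called by edgeR or DESeq2, with 1 at an unadjusted p under 0.05 (COL3A1 at −0.42). COL1A2 stood at −0.12 and DCN at −0.18. Of 4 immune markers tested 0 were called by edgeR, with 2 at an unadjusted p under 0.05, and 1 was called by DESeq2, with base quality as a covariate or without RES3 and RES5. PTPRC stood at −0.22, C1QB at −1.05 and CD68 at −0.47.

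Against 5.85% of all genes called lower, 2 of 4 blood markers and 1 of 3 lymphatic markers were lower, both small lists. Of the blood markers, haemoglobin HBB (−1.89) and the platelet integrin ITGA2B (−0.95) were lower, with GP9 at −0.28, and of the lymphatic markers PROX1 (−0.93) was lower, though not called without RES3 and RES5, with LYVE1 at 0.13 and PDPN at −0.09. Of 9 GC markers 1 was higher, HSD17B1 (0.56), a steroid enzyme, near the 8.29% of all genes called higher, with 2 called without FF10 and 0 without RES3 and RES5, and VCAN, INHBA and CYB5A were 0.11, 0.16 and 0.15 without passing. The median of the GC list was 0.16, with 2 of 9 members below 0 (FST −0.15 and INHA −0.09), and INHBB was 0.66 (adjusted p = 0.0907, edgeR). The summed level of the theca list was 1507 to 4618 normalized counts in FF and 1102 to 4391 in RES, and that of the mural list 3382 to 8735 and 2181 to 8769. The summed level of the blood list was 56.8 to 1090 in FF and 17.5 to 166 in RES. The part of these cells in the ligand values was not tested.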

How the data were processed

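Total RNA of laser-captured mural GCs was depleted of ribosomal RNA, fragmented, primed with random hexamers and sequenced with unique molecular identifiers. The authors aligned the reads with HISAT2 2.2.1 to Sscrofa11.1, removed PCR copies with UMI-tools 1.1.4 and counted read pairs on Ensembl exons with featureCounts 1.6.2. The libraries kept strand, but the counting command in the headers sets no strand option. The deposited values are raw counts per gene, not normalized. No column was left unmapped. Lower counts have larger counting error, which the SD and SE include.

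Genes with a symbol and a mean count of at least 5 were tested, without 38 small RNAs, in edgeR 4.0.16 (TMM, quasi-likelihood test, R 4.3.3) with no covariate. Alternatives were DESeq2 1.42.0, limma 3.58.1 (voom), other scalings and filters, a replicate block, base quality, CDH5 level and left-out libraries. Ratios used a pseudocount of 0.5, and ratios and correlations used 100000 two-sided permutations. Size factors are those of DESeq2. The base-quality groups were split at a gap in the share of high-quality bases that the study lists per library. Nothing states how sows were distributed over sequencing runs.

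In addition to the 10 ligands, CDH5 and EMCN, the members of each list that were called and the 3 with the highest level were named, and the 5 genes most like ANGPT1, ANGPT2 and VEGFA. TEK and KDR were named, beyond this rule, after their values were seen, as members close to the threshold. Also chosen after their values were seen were AMH, FST, INHA and INHBB among the GC markers, and VEGFC with CDH5 among the correlations. The same holds for LYL1 and ECSCR among the endothelial markers, TIE1 and FLT1 among the receptors, and PLVAP, EGFL7 and TAL1 for low counts. The ligands and lists were chosen with earlier results of these data known. In simulated data for this comparison with 200 changed of 11384 genes, edgeR recovered 44 of 68 genes changed by 0.7, 58 of 67 changed by 1 and 65 of 65 changed by 2 on the log2 scale, with 7 false calls among 174. List genes without an identifier matched by symbol were not analysed here.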

Additional observations from a re-analysis of the deposited data

How the results depend on the processing

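The number of ligands called, 1 over all libraries, was 2 within the upper base-quality group (ANGPT1 and VEGFB, where 17.8% of all genes were called), 0 within the lower group with FF10 in either place (where 1 or 0 of 11384 genes were called), 0 with the CDH5 level as a covariate, 0 without RES3 and RES5 (ANGPT1 −0.87, adjusted p = 0.0599, edgeR) and 0 to 1 in fits that left out 1 library. Placing FF10 in the upper group and leaving out RES3 and RES5 were chosen after seeing the data. ANGPT1 stayed below 0 in every alternative run. Sow numbers shared by the diets did not pair the libraries: over 13 pairs the deviations correlated at −0.32 to 0.36 (median −0.0016), 2 pairs were over 0.1, and 1 FF sow correlated best with its own number. With the number as a replicate block, RES9 had no FF partner and was left out. In that fit 0 ligands were called, ANGPT1 was −0.67 (adjusted p = 0.0796, edgeR), and 1084 of 11384 genes were called in place of 1610. Without RES9 and with no block, 1227 genes were called. The block also moved the calls among other ligands to 2, inhibitors to 1, hypoxia genes to 0, immune markers to 1 and blood markers to 0. Blocked, and so without RES9, the ANGPT1 to ANGPT2 ratio differed by −0.63 (exact sign-flip p = 0.0933). Leaving out RES9 with no block gave the same −0.63 (permutation p = 0.124).

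Leaving out FF10, the difference in the ANGPT1 to ANGPT2 ratio was −0.97 (permutation p = 0.0361), and over fits without 1 library it was −0.99 to −0.63. The VEGFA to THBS1 difference was 0.06 to 0.36 there. Correlations with CDH5 or EMCN with an adjusted p under 0.05 numbered 3 by Spearman's rho and 1 on log2 values, and those among ligands 1 on log2 values and 1 within quality groups, against 0 by r in each. PDGFB with EMCN in RES turned to −0.032 without the 2 farthest libraries.

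Ligands near 0 changed sign without a call. ANGPT2 was 0.0034 with all identifiers, 0.0067 with quality as a covariate, 0.0054 with voom, 0.22 within the lower group (0.16 with FF10 in the upper one) and 0.031 without RES3 and RES5. VEGFA was −0.017 with upper-quartile factors, −0.049 within the lower group, −0.075 within the upper group holding FF10 and −0.094 without RES3 and RES5. VEGFB was −0.029 within the lower group. VEGFC was −0.090 within the upper group (−0.048 with FF10), −0.0041 without FF10, −0.060 without RES3 and RES5 and −0.12 with voom. PDGFA was 0.21, FGF2 0.049 and THBS1 0.13 with the CDH5 level. PDGFB was −0.0094 with the block, −0.040 with quality, −0.73 within the upper group (−0.77 with FF10), −0.047 without RES3 and RES5 and −0.31 with voom. FGF2 was 0.0080 within the upper group and 0.034 without RES3 and RES5, and THBS1 was 0.19 within the lower group without FF10. In fits without 1 library ANGPT2 was −0.21 to 0.11, VEGFA −0.091 to 0.14, VEGFC −0.023 to 0.065, PDGFB −0.15 to 0.18, PDGFA −0.51 to −0.16, FGF2 −0.092 to −0.0046 and THBS1 −0.42 to 0.0042. The cause was not tested. Calls over all genes numbered 3193 with voom, 2023 within the upper group (1033 with FF10), 1 within the lower group (0 without FF10, with 1385 and 1325 at an unadjusted p under 0.05, edgeR) and 0 with the CDH5 level. Depth limits PGF, PDGFA and PDGFB, at 25 counts or fewer.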
